A study of Mus musculus with 8 samples.

Results

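The interferon response and class I antigen presentation were followed through 37 genes in cardiomyocytes of newborn mice. The genes were taken by symbol from a list of interferon signalling factors, interferon-induced genes, interferon-induced GTPases and class I presentation genes, and all 37 were among the 48440 entries of the count table. Cardiomyocytes were purified from hearts of C57BL6/J pups at postnatal day 2, and 1 male and 1 female heart from each of 4 litters gave 8 libraries. Male and female pups of litters 1 to 4 therefore form 2 groups of 4 animals, or 4 groups of 2. No genotype, infection or treatment is named for any animal, and all 8 are of the same strain and age. The comparisons ask whether these genes differed between the sexes and between litters.

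Type I interferons bind a receptor made of Ifnar1 and Ifnar2, and the kinases Jak1 and Tyk2 on that receptor phosphorylate Stat2. Together with Irf9 it enters a complex that binds the interferon-stimulated response element, a short repeat in the promoters of induced genes, while the response to interferon gamma runs through the gamma-activated site. The induced proteins block viral entry, translation and replication, and class I molecules carry peptides from inside the cell to its surface for inspection by T cells. In the heart this response is known for limiting viruses that infect cardiomyocytes. Many of these genes keep a basal level in the absence of infection, and others are nearly silent until interferon is sensed.

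The response element was searched in RefSeq promoters (GRCm38.p6), which were present for 30 of the 37 genes, in the 250 bases before each start. Its core, GAAA with any 2 bases and then GAAA again, read on both strands, occurred in 12 of the 30 genes (40.0%) and in 936 of 27025 genes of the whole promoter set (3.46%). The core of the gamma-activated site, TTCNNNGAA, also on both strands, occurred in 5 of 30 genes (16.7%) and in 8.13% of all genes. The listed genes were chosen as interferon genes, so the first share describes the choice, and a match is not evidence of binding. The 2 motifs differ in length and letters and were counted separately. Matches that overlap were each counted, and they share a run of capitals in the windows below. Windows from 7 promoters are shown because they span the range of the results, from genes with almost no reads (Oas1a, Isg15, Ifit1) through genes that were lower in litter 3 (Ifit3, Igtp) to genes read well in every library (Stat2, B2m). Capitals mark the matches with 20 bases of flank where the window allowed it, and each is written 5′ to 3′ on the strand of its gene. Matches that open with TTTC are the same core read on the opposite strand.
Oas1a: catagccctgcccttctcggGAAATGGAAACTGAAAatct
Isg15: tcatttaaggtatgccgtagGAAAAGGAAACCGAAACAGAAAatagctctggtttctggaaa
Ifit1: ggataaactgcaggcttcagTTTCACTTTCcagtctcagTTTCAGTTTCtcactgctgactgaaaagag
Ifit3: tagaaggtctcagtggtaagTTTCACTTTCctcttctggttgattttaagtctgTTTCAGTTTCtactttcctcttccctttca
Igtp: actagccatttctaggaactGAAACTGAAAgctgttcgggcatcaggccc
Stat2: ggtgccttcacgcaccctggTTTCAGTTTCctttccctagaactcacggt
B2m: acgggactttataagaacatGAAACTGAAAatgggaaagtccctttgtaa

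The Oas1a window lay at chr5:120907526-120907565 on the minus strand, and its last base was the base before the start. The Isg15 window lay at chr4:156200855-156200916 on the minus strand and held 3 overlapping matches. On chromosome 19, the Ifit1 window lay at chr19:34640765-34640833 and the Ifit3 window at chr19:34583353-34583436, both on the plus strand and each with 2 matches. The Igtp window at chr11:58199502-58199551, the Stat2 window at chr10:128270256-128270305 and the B2m window at chr2:122147528-122147577 were also on the plus strand, with 1 match each. B2m and Oas1a were the highest and the lowest of the 12 genes with a match when levels were expressed per kilobase of exon. The level of Oas1a is uncertain, because part of its transcript also occurs in Oas1g. The median over those 12 genes was 0.33 CPM per kilobase, against 2.65 CPM per kilobase over the 18 genes whose window held no match. The 2 sets overlapped widely, from 0.043 to 22.2 CPM per kilobase with a match and from 0.0985 (Oasl2) to 11.5 (Irf3) without. Their difference was not tested. CPM, the usual depth-scaled unit, was computed here with TMM-scaled library totals, and the lengths are merged exons of GENCODE M21.

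Library totals ran from 14226342 counts in the litter 3 female to 24910243 in the litter 1 male, and the 37 genes together took 0.0313% to 0.0342% of the counts of a library. Cardiomyocyte markers summed to between 58200 and 77900 CPM over 8 genes, which fits the label of purified cardiomyocytes. Most immune marker lists were close to 0: 4 general leukocyte genes summed to 0.042 to 0.39 CPM, 10 lymphoid genes to at most 0.225 CPM with 7 of them at 0 in every library, and 6 neutrophil genes to at most 0.208 CPM. The 11 macrophage genes summed to 5.83 to 10.3 CPM, which is above the mean level of many genes of the module. Of these 11, 2 were at 0 in every library and 7 in at least 1 library, and 3 had enough counts to be tested. The part of macrophage RNA in those levels was not tested. Other cardiac cell types varied more. Endothelial markers (9 genes) ran from 17.4 to 158 CPM and fibroblast markers (8 genes) from 32.4 to 243 CPM, and both litter 3 libraries were below every other library for the fibroblast sum, at 51.8 and 32.4 CPM. In bulk RNA, fewer cells of a type and less RNA per cell cannot be told apart.

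Levels in the module ran without a clear break from genes read well in every library to genes with almost no reads. Of the 37 genes 11 averaged 10 CPM or more, 14 lay from 1 to 10 CPM and 12 lay under 1 CPM. Per kilobase, the highest was B2m, the light chain shared by all class I molecules, at 22.2 ± 2.77 CPM per kilobase (SD, n = 8), above 87.5% of the tested genes with a length. It was followed by Irf3, the factor that starts interferon transcription after virus sensing, at 11.5 ± 0.891 CPM per kilobase. Tapbp, the tapasin chaperone that loads peptides on class I molecules, stood next at 8.96 ± 0.545, and H2-K1, a class I heavy chain, at 7.68 ± 1.85 CPM per kilobase. The median of all tested genes with a length was 4.08 CPM per kilobase, so 7 genes of the module were above it. B2m and Irf3 differed by more than their spread, and Tapbp and H2-K1 did not.

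At the other end stood genes used as standard signs of an interferon response. Isg15, a ubiquitin-like modifier, had 5, 7, 13, 3, 3, 2, 8 and 11 counts in the male and female of litters 1 to 4 in turn. Ifit1, which binds foreign RNA ends, had 6, 12, 11, 7, 6, 8, 3 and 10 counts in the same order. Every library held at least 2 counts of Isg15 and 3 of Ifit1, and neither gene reached 14 counts anywhere. Oas1a, an enzyme that activates RNase L on double-stranded RNA, had 2, 4, 1, 4, 0, 0, 1 and 3 counts. For Oas1a, 40.9% of the windows of its longest transcript also occur in Oas1g, so its counts are uncertain. Mx1, a GTPase that traps viral nucleoproteins, had 1, 2, 0, 5, 0, 0, 4 and 1 counts. A count of 0 allows up to 3 counts, which was 0.12 to 0.211 CPM depending on the library, so differences in Oas1a and Mx1 were not detectable at this depth. These 4 genes did not pass the filter on low counts, and 33 of the 37 were tested.

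Among the signalling factors, Irf3, Irf1 and Irf9 varied little between libraries, and Irf7 varied the most, from 1.41 to 3.24 CPM. Irf9, the DNA-binding part of the interferon-activated complex, averaged 17.4 ± 1.83 CPM and Stat2 16.2 ± 2.40 CPM (SD, n = 8). Irf1, which drives class I and interferon gamma targets, averaged 3.39 ± 0.327 CPM, and Irf7, the amplifier of type I interferon production, 2.21 ± 0.604 CPM. The steadiest gene of the whole module was Tapbp, with a coefficient of variation of 6.08% over the 8 libraries. Exons of Tapbp are overlapped for 29.0% of their length by Zbtb22 on the same strand and Gm19412 on the opposite strand, and 14% of its windows also occur in other genes, so its level is uncertain. Genes at 10 CPM or more had coefficients from 6.08% to 24%, and genes under 1 CPM from 32.2% to 125%, where counting error alone is large.

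Parp9 and Dtx3l, an enzyme pair that attaches ubiquitin to histones, were read well, at 21.7 ± 1.47 and 16.1 ± 1.45 CPM. Their start regions overlap head to head at chr16:35938470-35972605 and chr16:35926511-35939151, and 7.8% and 5.6% of the 100-base windows of their longest transcripts also occur in the other gene. Parp14, another member of the family nearby, averaged 6.03 ± 0.722 CPM. In contrast to these, Cmpk2 and Rsad2, neighbours on chromosome 12 that encode a nucleotide kinase and the antiviral enzyme viperin, averaged 1.04 ± 0.280 and 1.18 ± 0.372 CPM. Between them lay Ifi35 at 9.28 ± 0.970 CPM, Ifi27 at 4.30 ± 0.699 CPM and Bst2, or tetherin, which holds budding virus at the cell surface, at 1.31 ± 0.585 CPM. Mx2, annotated in GENCODE M21 as a polymorphic pseudogene, averaged 0.746 ± 0.323 CPM, Xaf1 0.660 ± 0.297 CPM and Rtp4 0.477 ± 0.276 CPM.

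**Figure D1:**
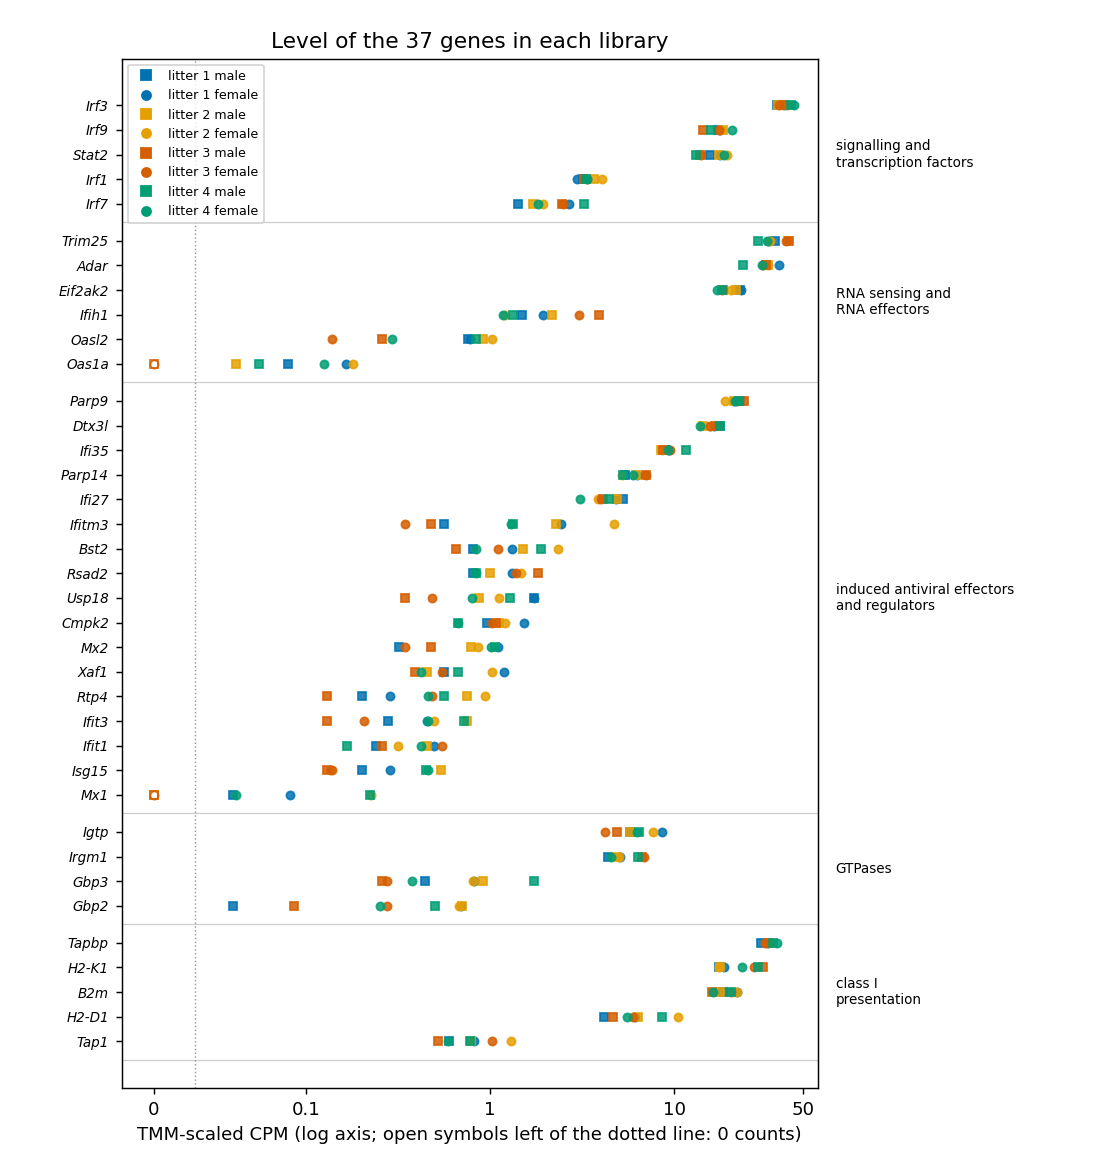
TMM-scaled CPM on a log axis (x) for each of the 37 genes (y), grouped by role, with 1 point for each of the 8 libraries, squares for males, circles for females and a colour for each litter. Irf3, Trim25 and Tapbp sit in groups near 30 to 40 CPM, while Isg15, Ifit1, Oas1a and Mx1 lie under 1 CPM in every library.

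Litter 3 gave the clearest contrasts: H2-K1, Ifih1 and Trim25 were higher in its pups, and Oasl2, Usp18, Ifit3, Ifitm3 and Igtp were lower. The module did not move as one, since Ifih1 and Trim25 rose while several induced genes fell. In the test of any difference between the 4 litters, 7 of the 33 tested genes passed (21.2%), against 32.1% of all 13771 tested genes. Against the mean of the other litters, 8 of 33 differed in litter 3 (24.2%), against 28.3% of all genes. Of these 8, 3 were higher, against 13.6% of all genes, and 5 were lower, against 14.8%. When libraries were scaled by their totals without TMM, the module again gave 8 calls, but 4 higher and 4 lower and without Igtp, and all genes gave 2419 higher and 1698 lower in place of 1871 and 2032. These shares lie near or under the background, so the counts themselves say nothing about the module.

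Tests used edgeR's quasi-likelihood F test on all 13771 genes with sex in the litter model and Benjamini-Hochberg adjusted p-values, and a gene passed at an adjusted p under 0.05. Each litter holds 2 animals, and the 4 comparisons of a litter with the rest share libraries and are not independent. Litter cannot be told apart from anything else that 2 littermates share, such as the day of dissection, which the labels do not give. The median litter 3 log2 difference was -0.09 over the 33 genes and 0.0 over all tested genes. The median of the widest log2 difference between any pair of litters was 0.62 over the 33 genes and 0.37 over all tested genes, and this measure is larger for genes with few counts. Both litter 3 libraries lay outside the range of the other 6 for 9 of 33 genes (27.3%), against 31.6% of all genes. Above that range lay 3 genes, Ifih1, Irgm1 and Parp14, against 15.1% of all genes, and below it 6, Oasl2, Usp18, Ifit3, Ifitm3, Gbp3 and Igtp, against 16.4%.

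**Figure D2:**
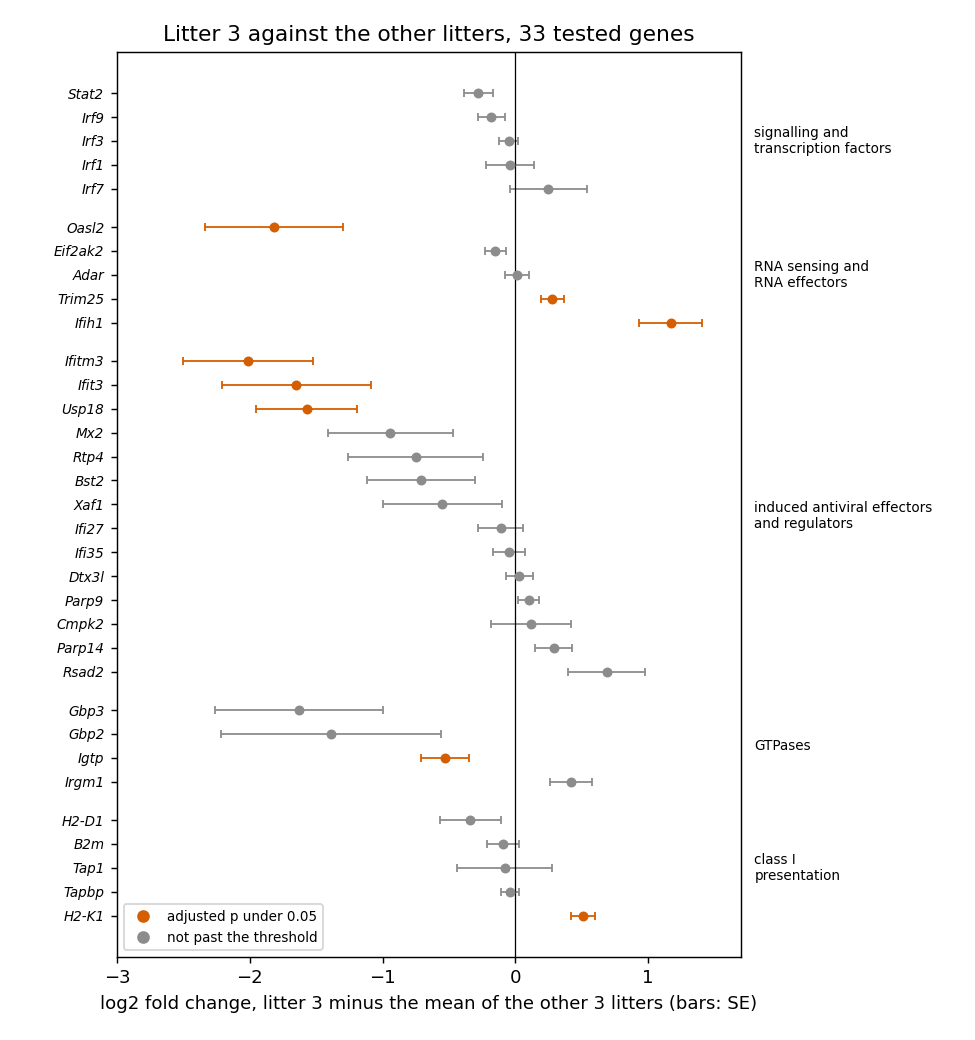
Log2 fold change of litter 3 minus the mean of the other 3 litters (x, bars are standard errors) for the 33 tested genes (y) by role, with genes past an adjusted p of 0.05 coloured. Ifih1 stands furthest to the right at 1.17 and Ifitm3 furthest to the left at -2.01. The genes of the signalling group sit between -0.28 (Stat2) and 0.25 (Irf7) without passing.

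H2-K1 was the gene of the module with the firmest litter difference. This heavy chain of the class I molecule is encoded at chr17:33996017-34000347 on the minus strand (GRCm38, GENCODE M21), and none of its 100-base windows occurs in another gene. Its level was 17.5 and 18.6 CPM in the male and female of litter 1, 17.8 and 17.4 in litter 2, 30.3 and 27.0 in litter 3, and 28.4 and 23.4 in litter 4. Litters 1 and 2 were low, litters 3 and 4 were high, and the 4 libraries of one pair did not overlap the 4 of the other.

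The litter means of H2-K1 were 18.1 ± 0.798, 17.6 ± 0.341, 28.7 ± 2.32 and 25.9 ± 3.57 CPM (SD, n = 2). The litter test gave an adjusted p of 0.000853 and a log2 range of 0.71 between litters. In litter 3 H2-K1 was 1.42-fold higher than in the others (log2 0.51, SE 0.09, adjusted p 0.00119), and neither call was lost under any alternative tried. It was lower in litter 1 (log2 -0.38, SE 0.09, adjusted p 0.0162) and in litter 2 (log2 -0.43, SE 0.09, adjusted p 0.018), and higher in litter 4 (log2 0.30, SE 0.09, adjusted p 0.0438). The litter 4 call was lost in 10 of 16 alternatives, among them with DESeq2 (adjusted p 0.121) and without the litter 1 male (0.107), the litter 2 male (0.0787), the litter 2 female (0.0544), the litter 3 male (0.052), the litter 3 female (0.0661), the litter 4 male (0.412) or the litter 4 female (0.0706). The litter 1 call was lost without its male (0.334) or female (0.0512), and the litter 2 call without its male (0.18) or female (0.131), while leaving litter 3 out of the mean of the others ended both (0.161 and 0.164).

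Of the 5 class I presentation genes H2-K1 alone passed the litter test, which 32.1% of all genes did, and it alone passed in a litter comparison. H2-D1, the second classical heavy chain of this strain, lies on the same chromosome at chr17:35262730-35267499 and read 4.14 and 6.09 CPM in litter 1, 6.36 and 10.5 in litter 2, 4.64 and 5.99 in litter 3, and 8.55 and 5.54 in litter 4. In litters 2 and 4 male and female stood about as far apart as the litter means, which ran from 5.11 to 8.44 CPM. In litters 1 and 3 littermates were closer, and the litter test did not pass (adjusted p 0.116). The ratio of H2-K1 to H2-D1 counts ran from 1.65 in the litter 2 female to 6.53 in the litter 3 male. For H2-D1, 4.6% of windows also occur in other class I genes, so some of its reads may have been counted elsewhere or left out.

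B2m was 18.3 and 21.9 CPM in litter 1, 17.6 and 21.9 in litter 2, 16.0 and 20.4 in litter 3, and 20.2 and 16.2 in litter 4, with every litter overlapping the others. Its litter test gave an adjusted p of 0.718. Tapbp ran from 29.4 to 36.0 CPM (litter test adjusted p 0.293). Tap1, a subunit of the pump that brings peptides into the endoplasmic reticulum, was the low gene of this group at 0.805 ± 0.259 CPM (SD, n = 8), with 12 to 29 counts per library (adjusted p 0.524). A p-value past the threshold for H2-K1 and not for these genes does not test their difference, which was not tested.

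**Figure D3:**
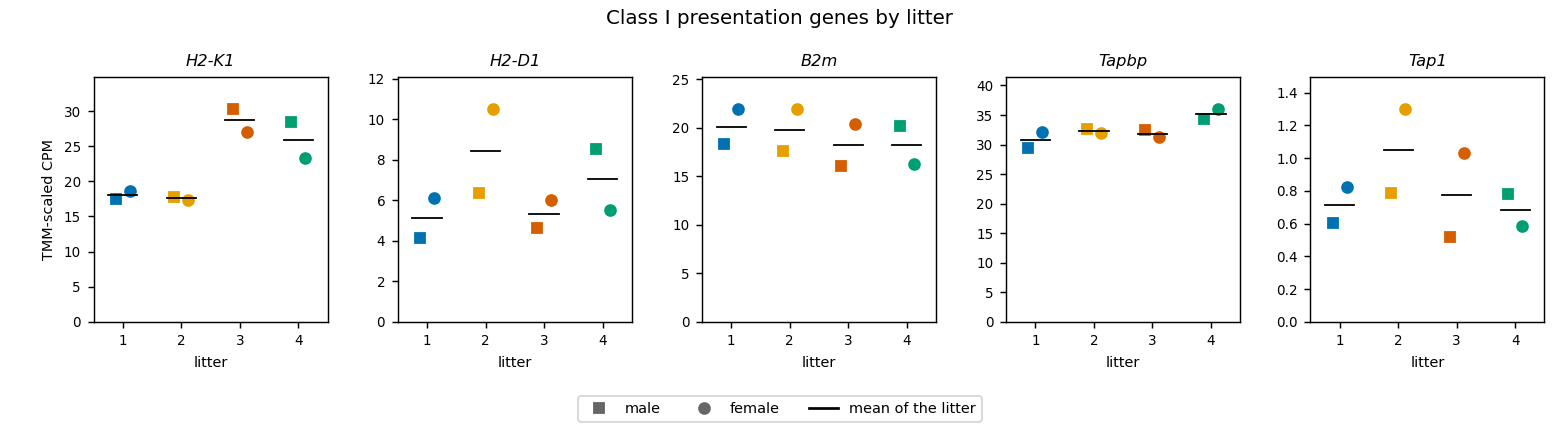
TMM-scaled CPM (y, from 0) by litter (x) for the 5 class I presentation genes, with squares for males, circles for females and a bar at the mean of each litter. H2-K1 sits at 17.4 to 18.6 CPM in litters 1 and 2 and at 23.4 to 30.3 in litters 3 and 4, while the litters overlap for B2m.

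Among the sensors and RNA-directed effectors, 4 of 5 tested genes passed the litter test, in different directions, against 32.1% of all genes. A group of 5 is too small to read that share as a property of the group. Ifih1, also called MDA5, the sensor of long double-stranded RNA, lies at chr2:62595798-62646255. It read 1.49 and 1.93 CPM in the male and female of litter 1, 2.16 and 1.21 in litter 2, 3.90 and 3.03 in litter 3, and 1.34 and 1.18 in litter 4. Both litter 3 pups were above all others. It was 2.25-fold higher in litter 3 (log2 1.17, SE 0.24, adjusted p 0.00396; litter test adjusted p 0.0157). The litter 3 call was lost without the litter 3 male (adjusted p 0.0764), and the litter test was lost without that male (0.143), without the litter 3 female (0.0613) or without both (0.591).

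Trim25, the ubiquitin ligase that activates the sensor RIG-I, was one of the most abundant genes of the module. It read 35.3 and 32.7 CPM in litter 1, 41.4 and 33.2 in litter 2, 42.0 and 40.3 in litter 3, and 28.5 and 31.9 in litter 4. The litter 3 pair was high, but the litter 2 male reached the same level. It was 1.22-fold higher in litter 3 (log2 0.28, SE 0.09, adjusted p 0.027), and that call was lost with DESeq2 (0.0507), without the litter 1 female (0.0545), the litter 3 female (0.179) or the litter 3 male (0.123). The litter test (adjusted p 0.0339) was lost without the litter 1 male (0.0634), the litter 1 female (0.0622), the litter 3 male (0.0793), the litter 3 female (0.101) or the litter 4 male (0.12), with litter 3 (0.176) or litter 4 (0.0898) left out, and without the sex term (0.0557).

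Eif2ak2, also called PKR, the kinase that shuts down translation on double-stranded RNA, showed a small range. It read 22.8 and 23 CPM in litter 1, 21.6 and 20.3 in litter 2, 18.4 and 18.2 in litter 3, and 18.2 and 17.0 in litter 4. Littermates were close together, with litters 1 and 2 above litters 3 and 4 in every library. The litter test gave an adjusted p of 0.0271 for a log2 range of 0.38, and litter 1 was higher than the rest (log2 0.28, SE 0.08, adjusted p 0.0328). Both calls were fragile. The litter 1 call was lost with DESeq2 (0.139), with libraries thinned to equal depth (0.0695), with litter 3 out of the mean of the others (0.0881), and without the litter 1 male (0.2), litter 1 female (0.379), litter 2 female (0.0653), litter 3 male (0.0552) or litter 4 female (0.059). The litter test was lost with DESeq2 (0.136), with thinning (0.0622), without litter 1 (0.185), litter 3 (0.0508) or litter 4 (0.0746), and without the litter 1 male (0.0927), litter 1 female (0.154), litter 3 male (0.0506) or litter 4 female (0.0713).

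Adar, which edits adenosine to inosine in double-stranded RNA, averaged 31.0 ± 3.70 CPM (SD, n = 8) and did not pass the litter test (adjusted p 0.0765). Exons of Adar overlap those of Chrnb2 on the opposite strand for 16.8% of their length, and whether counting used the strand is not given in the sources used here. Oasl2, a member of the oligoadenylate synthetase family, was near the floor. Its CPM was 0.763 and 0.781 in litter 1, 0.915 and 1.03 in litter 2, 0.260 and 0.138 in litter 3, and 0.838 and 0.294 in litter 4. The litter 3 pups were the lowest, and the litter 4 female was close to them.

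Oasl2 was 3.53-fold lower in litter 3 (log2 -1.82, SE 0.52, adjusted p 0.0221), and the litter test gave an adjusted p of 0.0442. From summed counts, 8 in litter 3 and 105 in the other 6 libraries, the ratio was 0.278 with an exact 95% interval from 0.117 to 0.569, which covers counting error only. The litter 3 call was lost with DESeq2 (0.0743) and without the litter 3 male (0.131), the litter 3 female (0.147) or the litter 4 male (0.0575). The litter test was lost with DESeq2 (0.194), thinning (0.103), litter 2 (0.0613) or litter 3 (0.429) left out, no sex term (0.0611), and without the litter 1 male (0.0644), litter 1 female (0.0725), litter 2 female (0.0947), litter 3 male (0.161) or litter 3 female (0.163).

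Of the 14 tested antiviral effectors and regulators, 2 passed the litter test, Usp18 and Ifitm3, and 3 were lower in litter 3, those 2 and Ifit3. Over all genes 32.1% passed the litter test and 14.8% were lower in litter 3. Usp18, which removes Isg15 from proteins and blocks the type I receptor, lies at chr6:121245906-121270917. It read 1.73 CPM in both pups of litter 1, 0.873 and 1.12 in litter 2, 0.347 and 0.482 in litter 3, and 1.28 and 0.798 in litter 4. Litter 1 was the highest and litter 3 the lowest, with no overlap with other litters at either end.

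In litter 3 Usp18 was 2.98-fold lower (log2 -1.57, SE 0.38, adjusted p 0.01), and this call was lost without the litter 3 male (0.161). In litter 1 it was 2.32-fold higher (log2 1.21, SE 0.28, adjusted p 0.0156), and this was lost without the litter 1 male (0.17), without the litter 1 female (0.18) and with litter 3 out of the mean of the others (0.139), and DESeq2 gave it no adjusted p. The litter test (adjusted p 0.0148) was lost with DESeq2 (0.0774), litter 1 (0.105) or litter 3 (0.195) left out, and without the litter 1 male (0.0668), litter 1 female (0.0619) or litter 3 male (0.1).

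Ifit3, a partner of Ifit1 in RNA binding whose promoter is shown above, read 0.281 and 0.452 CPM in litter 1, 0.749 and 0.495 in litter 2, 0.130 and 0.206 in litter 3, and 0.726 and 0.462 in litter 4. The litter 3 libraries were the lowest, at 3 counts each. It was 3.14-fold lower in litter 3 (log2 -1.65, SE 0.56, adjusted p 0.0452), and from 6 counts against 71 the ratio was 0.309 with an exact 95% interval from 0.11 to 0.705. This call was lost with no filter on low counts (0.0566) and without the litter 1 female (0.098), litter 2 male (0.0952), litter 2 female (0.0503), litter 3 male (0.407), litter 3 female (0.125) or litter 4 male (0.0899), and DESeq2 gave no adjusted p. For Ifit3, 31.7% of windows also occur in Ifit3b, so its counts are uncertain.

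**Figure D4:**
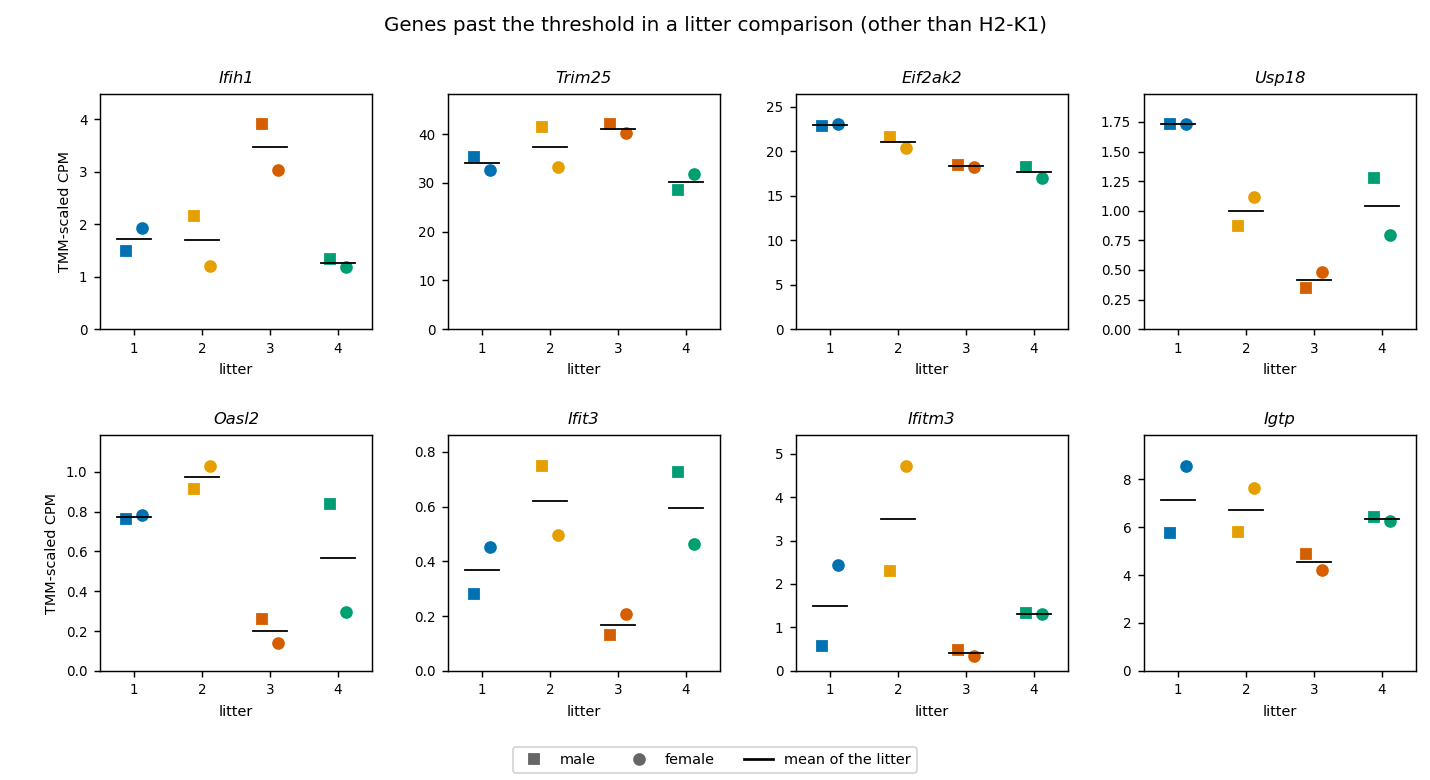
TMM-scaled CPM (y, from 0) by litter (x) for the 8 genes other than H2-K1 that passed in a litter comparison, with squares for males, circles for females and bars at litter means. Litter 3 is highest for Ifih1 and lowest for Usp18, Oasl2, Ifit3, Ifitm3 and Igtp, and littermates are close for Eif2ak2.

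Ifitm3, a membrane protein that blocks fusion of viruses with the cell, varied the most of the genes that passed. It lies at chr7:141009586-141010770 on the minus strand and read 0.562 and 2.43 CPM in the male and female of litter 1, 2.29 and 4.72 in litter 2, 0.477 and 0.344 in litter 3, and 1.34 and 1.30 in litter 4. Litter 2 held the highest library, litter 3 the lowest, and the pups of litter 1 stood far apart. It was 4.04-fold lower in litter 3 (log2 -2.01, SE 0.49, adjusted p 0.00951), a call that was lost without the litter 3 female. Over the alternatives this log2 difference ran from -2.86 to -1.36. It was 3.61-fold higher in litter 2 (log2 1.85, SE 0.33, adjusted p 0.00805), which was lost without the litter 2 female (0.187) and with litter 3 out of the mean of the others (0.0885). The litter test gave an adjusted p of 0.00591 and was lost with litter 2 left out (0.0866).

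Endothelial markers moved with Ifitm3. The 9 genes summed to 17.4 and 65.9 CPM in the male and female of litter 1, 88.4 and 158 in litter 2, 19.0 and 19.9 in litter 3, and 32.6 and 25.8 in litter 4. None of the 9 was at 0 in any library, all 9 were higher in litter 2, and 6 of 9 were lower in litter 3 in the same fits. Over all tested genes 7.86% were higher in litter 1, 3.3% in litter 2, 13.6% in litter 3 and 4.71% in litter 4. In litter 3 14.8% of all tested genes were lower, and in litter 4 5.8%. The library with most Ifitm3 had the highest endothelial sum, and the litter 1 male was low and its sister high for both. The part of endothelial RNA in the Ifitm3 result was not tested. Other cell types moved in the same litters. Of 8 fibroblast markers 6 were higher in litter 2 (median log2 0.97) and 6 were lower in litter 3 (median log2 -1.91), while 3 were higher in litter 1 and 6 in litter 4 (median log2 0.62). Of 6 mural markers 2 were higher in litter 2 (median log2 1.06) and 3 were lower in litter 3 (median log2 -1.2), while their sum stayed between 474 and 601 CPM. The cardiomyocyte sum was 60000 and 58200 CPM in the male and female of litter 3 and 67100 to 77900 CPM in the other 6 libraries. Of its 8 genes 3 were lower and 0 higher in litter 3 (median log2 -0.06). In litter 1, 2 of the 8 were higher and 0 lower, and in litter 4, 3 were higher and 2 lower. Epicardial markers (6 genes) summed to 23.5 and 23.3 CPM in litter 3 and to at most 18.3 CPM elsewhere, but of the 5 tested 1 was higher and 1 lower, with a median log2 of -0.4. Erythroid markers (6 genes) summed to 531 CPM in the litter 3 male and 185 CPM in its sister, and to at most 246 CPM elsewhere. In litter 3, 2 of the 6 were higher and 0 lower, and all 6 had a log2 difference above 0 (median 0.94). The part of these cell types in the results of any litter was not tested.

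**Figure D5:**
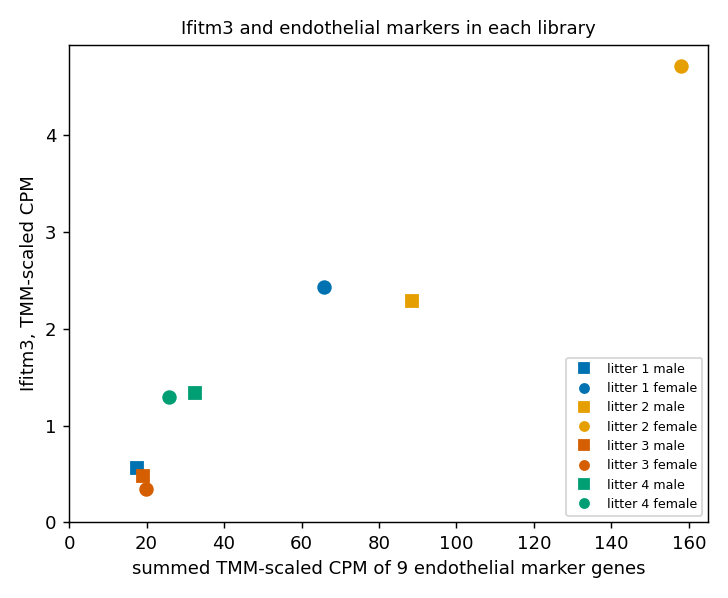
Ifitm3 level (y, TMM-scaled CPM) against the summed TMM-scaled CPM of 9 endothelial marker genes (x), with 1 point per library, squares for males, circles for females and a colour per litter. The litter 2 female is at the top right at 158 and 4.72 CPM, and the litter 3 pups lie at the lower left with the litter 1 male.

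Of the GTPases, which attack the vacuoles that hold intracellular pathogens, none of 4 passed the litter test (32.1% of all genes did) and Igtp was lower in litter 3 (14.8% of all genes were). Igtp read 5.74 and 8.56 CPM in litter 1, 5.78 and 7.65 in litter 2, 4.86 and 4.20 in litter 3, and 6.42 and 6.25 in litter 4. The litter 3 pups were the lowest, 1.45-fold under the rest (log2 -0.53, SE 0.18, adjusted p 0.0417). This was lost with DESeq2 (0.0908), with library size alone (0.0548), and without the litter 1 female (0.0798), litter 2 female (0.0684), litter 3 female (0.421) or litter 4 male (0.0814). Of its windows, 5.7% also occur in the neighbouring Irgm2.

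Irgm1, a regulator of the same GTPase family, stood at 6.64 and 6.81 CPM in litter 3 and at 4.38 to 6.81 CPM over all libraries, with an adjusted p of 0.0702 in litter 3 (log2 0.42, SE 0.16). Both genes carry a match to the response element, and their litter 3 differences had opposite signs. Gbp3 had 0.260 and 0.275 CPM in litter 3 and up to 1.73 CPM in the litter 4 male (log2 -1.63, SE 0.63, adjusted p 0.0731). Gbp2 ran from 0.0401 CPM in the litter 1 male to 0.707 CPM in the litter 2 male, and its litter 3 difference of -1.39 (SE 0.83) had an adjusted p of 0.232.

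In litter 1, 3 of 33 genes differed (9.09%), against 13.3% of all genes, with Usp18 and Eif2ak2 higher (7.86% of all genes were) and H2-K1 lower (5.41%). In litter 2, 2 of 33 differed (6.06%), against 4.18%, with Ifitm3 higher (3.3% of all genes were) and H2-K1 lower (0.879%). In litter 4, H2-K1 alone differed, 1 of 33 (3.03%), against 10.5%, of which 4.71% were higher and 5.8% lower. With library size alone, litter 4 had 0 genes of the module higher and 3 lower. Over the litter test and the 4 comparisons, 9 different genes of the 33 passed at least once. None of the 5 signalling factors did. The share of all genes that passed at least once was not computed, so neither count can be read against a background.

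Other genes of the pathway were read as lists, and their counts stand against the same background: over all tested genes 32.1% passed the litter test, and in litter 3 13.6% were higher and 14.8% lower. Of 9 interferon genes in the table, 1 had any count: Ifna2, with 1 count in each of 2 libraries. The receptor genes Ifnar1 and Ifnar2, named here for their role, averaged 47.7 ± 3.66 and 13.0 ± 1.07 CPM (SD, n = 8). Of 13 tested genes on the list of receptors, kinases, feedback and other signalling genes, 5 passed the litter test, which is near the 32.1% of all genes, and in litter 3 4 were higher and 1 lower, against 13.6% and 14.8% of all genes.

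The 3 receptor kinases had the smallest adjusted p-values of that list in the litter test, and all were higher in litter 3. Jak1 read 168 ± 14.7 CPM in litter 3 and 108 ± 1.03, 113 ± 7.52 and 123 ± 3.04 CPM in litters 1, 2 and 4 (SD, n = 2), with a log2 difference of 0.56 (SE 0.07, adjusted p 0.000105). Jak2, which serves the interferon gamma receptor, read 49.0 ± 0.244 CPM in litter 3 against 31.7 ± 1.76 to 37.2 ± 3.06 CPM elsewhere (log2 0.53, SE 0.07, adjusted p 0.000186). Tyk2 read 33 ± 1.10 CPM in litter 3 and 23.5 ± 0.258 to 24 ± 2.52 CPM elsewhere (log2 0.48, SE 0.08, adjusted p 0.000807). Of the other genes called there, named after their values were seen, Socs3, a feedback inhibitor of these kinases, had a larger difference (log2 1.11, adjusted p 0.00244), and the interferon gamma receptor gene Ifngr2 was lower (log2 -0.23, adjusted p 0.0166). Stat2 and Irf9, downstream of these kinases, read 13.9 ± 0.231 and 15.9 ± 2.26 CPM in litter 3, with log2 differences of -0.28 (SE 0.11, adjusted p 0.0714) and -0.18 (SE 0.10, adjusted p 0.207).

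Among 11 tested nucleic acid sensors and adaptors 2 passed the litter test, Myd88 (adjusted p 0.0212) and Samhd1 (0.0408), and 1 was higher and none lower in litter 3. Of 23 other induced genes 5 passed, led by Ddx60 (0.00965), Oas1c (0.0125) and Slfn5 (0.0125), and 4 were higher and none lower in litter 3, against 32.1%, 13.6% and 14.8% of all genes. Oas1c read 2.08 and 2.68 CPM in litter 3 and 0.630 to 1.34 CPM elsewhere, and Ddx60, an RNA helicase-like gene, 13.1 and 13.6 CPM in litter 3 and 6.10 to 11.6 CPM elsewhere.

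Of 5 other GTPases 2 passed, Iigp1 (adjusted p 0.000215) and Gbp9 (0.00554). Iigp1, a GTPase of the same family as Igtp, read 8.32 ± 1.32, 12.1 ± 2.16, 19.3 ± 2.34 and 17.9 ± 0.734 CPM in litters 1 to 4 (SD, n = 2) and was higher in litter 3 (log2 0.67, SE 0.10, adjusted p 0.000726), opposite to Igtp. Like H2-K1, it was higher in litters 3 and 4 than in litters 1 and 2. Of 13 other class I presentation genes 2 passed, Psme2 (0.00421), a proteasome activator subunit, and Calr (0.0423), a chaperone, and 3 were lower and none higher in litter 3. Of 8 class II genes 2 could be tested and neither passed.

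Male and female pups did not differ detectably in any gene of the module. Of the 33 tested genes 0 passed edgeR's quasi-likelihood test of sex, against 0.0436% of all tested genes, and 0 had an unadjusted p under 0.05. DESeq2 also called 0. For 0 of 33 genes did the 4 males and 4 females not overlap, against 2.07% of all genes. The median log2 difference, male minus female, was -0.04 over the 33 genes and 0 over all tested genes, and 13 of 33 were above 0. Single differences ran from -0.94 for Ifitm3 (SE 0.68) to 0.47 for Gbp3 (SE 0.57). Of the 9 endothelial markers 0 passed by sex and 0 had a log2 difference above 0 (median -0.67). Of the 8 fibroblast markers 0 passed and all 8 were above 0 (median 0.7). The part of these cell types in the sex differences was not tested.

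With litter as a block, which compares each male with the female of the same litter, 0 of 33 genes passed, against 0.211% of all genes. Ifitm3 (unadjusted p 0.0201, adjusted p 0.365) and Stat2 (unadjusted p 0.0297, adjusted p 0.385) were the 2 with an unadjusted p under 0.05. Stat2 read 15.6 and 17.6 CPM in the male and female of litter 1, 17.5 and 19.3 in litter 2, 13.7 and 14 in litter 3, and 13.1 and 18.6 in litter 4. The male was lower in all 4 litters, by a small amount in litter 3 and the most in litter 4. Parp9 and Ifi27 were higher in the male of all 4 litters, with log2 differences of 0.12 (SE 0.07) and 0.25 (SE 0.14) and adjusted p-values of 0.511 and 0.526 in the blocked fit. For genes read well the errors were small: the blocked standard error was 0.06 for Tapbp and Irf3 and 0.08 for H2-K1, and 0.57 for Gbp2.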

How the data were processed

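The deposited table holds raw read counts for 48440 gene entries in 8 libraries, and 24853 entries had any count. The submitters' processing notes name STAR 2.7.3a and the mm10 build without giving their role, and the counting program, annotation and strand setting are not given in the sources used here. Per the labels' protocols, libraries came from total RNA with a stranded total RNA kit, although the labels name poly(A) RNA as the molecule.

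Counts were analysed in R 4.3.3 with edgeR 4.0.16. The filter filterByExpr on sex kept 13771 genes, and libraries were scaled by TMM. The sex test had no litter term (6 residual degrees of freedom), and the litter model held sex (3 residual degrees of freedom). Adjusted p-values are Benjamini-Hochberg over all tested genes, with a threshold of 0.05. Each library is 1 animal. Alternatives were DESeq2 1.42.0, other scalings and filters, left-out libraries or litters, and a litter block. Litter numbers are in the labels, so they pair the pups: deviations of male and female correlated at 0.506, 0.503, 0.696 and 0.367 over genes in litters 1 to 4, against -0.482 to 0.27 across litters. Over the 33 tested genes of the module alone these were 0.107, 0.707, 0.761 and -0.0258, against -0.725 to 0.503 across litters, so the pairing shows in litters 2 and 3 of the module and comes from the labels.

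Exon lengths and shared windows came from GENCODE M21 (GRCm38), whose symbols matched 46263 entries, and windows of 100 bases were compared. The table held 2 names on more than 1 entry, none of them a gene reported here. The 37 genes, the other lists and the roles were chosen with earlier results of these data known. Any of the 37 genes could be named. Values in each library were given for genes that passed in a litter comparison and for the most and least abundant, and also for H2-D1 and Stat2, chosen after their values were seen. Other pathway genes were named only if they passed the litter test, at most 3 a list. Ifna2, Ifnar1, Ifnar2, Socs3 and Ifngr2 lie outside that rule and were named after their values were seen. Some items are not reported here. Scripts were tested on simulated data.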

Additional observations from a re-analysis of the deposited data

Results flagged for a closer look

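Within each sex, 5 of 74 groups of 4 libraries had a library set far apart from the other 3 by Dixon's criterion, and chance gives about 3.7. Irf9 was 20.6 CPM in the litter 4 female, against 17.5 to 17.8 in the other females. Adar was 23.5 CPM in the litter 4 male, against 31.3 to 32.1 in the other males. Trim25 was 40.3 CPM in the litter 3 female, against 31.9 to 33.2, and Ifit3 was 0.206 CPM there, against 0.452 to 0.495, and both also differed in litter 3 as a whole. H2-D1 was 10.5 CPM in the litter 2 female, against 5.54 to 6.09 in the other females.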

How the results depend on the processing

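Over 36 results, 154 of 206 alternative counts stayed within 1.5 times the count reported. For the 21 litter results of single genes that passed, 252 of 342 alternatives kept the call and 90 lost it. Alternatives that left a gene untested or without an adjusted p are not among the 342. For example, the litter 3 result of Ifit3 had 12 alternatives and that of H2-K1 had 15. The 3 sex differences followed, which had not passed, had 54 alternatives, and 1 reversed: that of Gbp2 became 0.11 with the litter block and litter 1 left out. No gene of the module passed by sex under any alternative. Over all genes, the replicate block raised the sex count from 6 to 29, and to 25, 22, 44 and 24 with litter 1, 2, 3 or 4 left out. Leaving out litter 3 lowered the litter count from 4427 to 1898, and taking it out of the mean of the others lowered litter 1 from 1827 to 794 and litter 2 from 575 to 201; for litter 2 a mean of at least 50 counts gave 345 and no filter 1249.

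In the module, the litter count of 7 became 4 with DESeq2, 2 without litter 3, 3 with a mean of at least 50 counts and 13 with no filter. The litter 3 count of 8 became 4 with DESeq2 and 3 with a mean of at least 50 counts, which left 18 of the genes tested. The litter 1 count of 3 became 1 with DESeq2 and 0 without litter 3 in the mean. The litter 2 count of 2 became 0 without litter 3 in the mean, 1 with a mean of at least 50 counts and 5 with no filter. The litter 4 count of 1 became 0 with DESeq2, 2 with DESeq2 size factors, 3 with library size alone, without litter 3 in the mean or with a mean of at least 50 counts, and 4 with no filter. All genes in litter 4 split into 262 higher and 1501 lower with library size alone, against 648 and 799.

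Leaving out 1 library at a time, where the lone littermate is assumed to vary like the others, gave 2 to 10 genes in the litter test, 0 to 3 in litter 1, 0 to 4 in litter 2, 3 to 11 in litter 3 and 0 to 1 in litter 4. Over all genes it gave 359 to 1869 in litter 1, 153 to 752 in litter 2, 1704 to 3791 in litter 3 and 322 to 1302 in litter 4. Apart from the settings that change how many genes or libraries are tested, the cause was not tested. Thinning all libraries to the smallest total, chosen after seeing the data, gave 5 of 29 genes in the litter test and 9 in litter 3. An equal count can hold another gene. Thinning also gave 1 gene in litter 4, but that gene was lower, and H2-K1 was no longer called there. Genes under 1 CPM rest on few counts, and 13 of the 37 had fewer than 10 in some library.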
